A study of Arabidopsis thaliana with 72 samples.

Results

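AT3G10040 is the Arabidopsis locus of HYPOXIA RESPONSE ATTENUATOR1 (HRA1), a DNA-binding protein of the trihelix family. It was followed through the 1 ATH1 probe set that the array annotation assigns to this locus alone, of 22746 probe sets that are not controls. The plants were wild-type Arabidopsis thaliana of the ecotype Wassilewskija, grown on solid medium under constant light and moved at 10 days of age into pressure chambers for 1, 3, 6, 12, 48 or 72 h. The treated plants were held at 10 kPa with 2.1 kPa oxygen, and the controls at 97 kPa with 21 kPa oxygen. Carbon dioxide was 0.05 kPa in both and nitrogen made up the rest, so total pressure and oxygen fell together and cannot be told apart. The sample descriptions write 101 kPa for the controls where the other labels write 97 kPa. Roots and shoots were measured on 72 arrays, 3 in each of 24 groups, and each array held the RNA of a tube of about 12 plants, with 1 tube from each of 3 chambers run side by side. The question the labels pose for this gene is how its transcript in each organ followed the move to low pressure over 72 h.

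In Arabidopsis, low oxygen is sensed through the stability of group VII ERF transcription factors such as RAP2.12, which carry an N-terminal cysteine that is oxidised in air and marks them for destruction. When oxygen falls they persist and switch on a core set of genes for fermentation and survival, among them HRA1 itself. The HRA1 protein binds RAP2.12 and damps its activity, so the pair is known as a feedback loop that keeps the low-oxygen response from running on.

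Values are signal intensities in MAS5 units, scaled before deposition so that each array has a trimmed mean of 500. Differences are on the scale of log2(signal + 8.88), which understates changes of low signals, with the standard error (SE) of a limma fit. "Rose", "fell" and "called" mean an adjusted p below 0.05 over all probe sets tested in the fit. The array numbers in the labels run by pressure, with the 10 kPa arrays, the 97 kPa arrays of 1 and 3 h and those of 6 to 72 h in separate runs, so run and pressure cannot be told apart. The exceptions are 4 arrays of 72 h, 1 for each tissue and pressure, that were numbered together. The tissue labels matched their markers: 4 photosynthesis genes summed to between 72478 and 134144 in shoot arrays and to between 1415 and 11209 in root arrays. The summed signal of 7 root markers was 1373 to 3822 in roots and 123 to 1017 in shoots. The ratio of 3′ to 5′ signal of the GAPDH control probe sets, which rises when RNA is shorter, was 58.9 to 1312 in roots and 10.1 to 147 in shoots.

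The transcript was highest in roots 1 h after the move to 10 kPa, and lowest in control roots. Over the 24 groups the mean log2 level ran from 6.42 in roots at 97 kPa and 1 h to 10.26 in roots at 10 kPa and 1 h. The next highest groups were shoots at 97 kPa and 72 h (9.37), roots at 10 kPa and 3 h (9.11), roots at 10 kPa and 6 h (8.54), shoots at 10 kPa and 1 h (8.37), shoots at 97 kPa and 48 h (8.29) and roots at 10 kPa and 12 h (8.28). Thus 1 control group stood second among groups otherwise led by 10 kPa roots. The middle of the order held shoots at 10 kPa and 3 h (7.68), roots at 48 h at 10 kPa (7.64) and at 97 kPa (7.60), roots at 10 kPa and 72 h (7.46), roots at 97 kPa and 12 h (7.18) and shoots at 97 kPa and 12 h (7.17). The lower end held shoots at 6 h at 10 kPa (7.04) and at 97 kPa (7.03), shoots at 10 kPa and 12 h (7.03), shoots at 97 kPa and 3 h (6.93), shoots at 10 kPa and 72 h (6.84), roots at 97 kPa and 6 h (6.77), shoots at 10 kPa and 48 h (6.64), roots at 97 kPa and 3 h (6.58), shoots at 97 kPa and 1 h (6.49) and roots at 97 kPa and 72 h (6.45). Of the 23 pairs of neighbours in this order, 21 overlapped in their single arrays. The exceptions were the step from roots at 10 kPa and 1 h to shoots at 97 kPa and 72 h and the step from roots at 10 kPa and 3 h to those at 6 h.

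**Figure D1:**
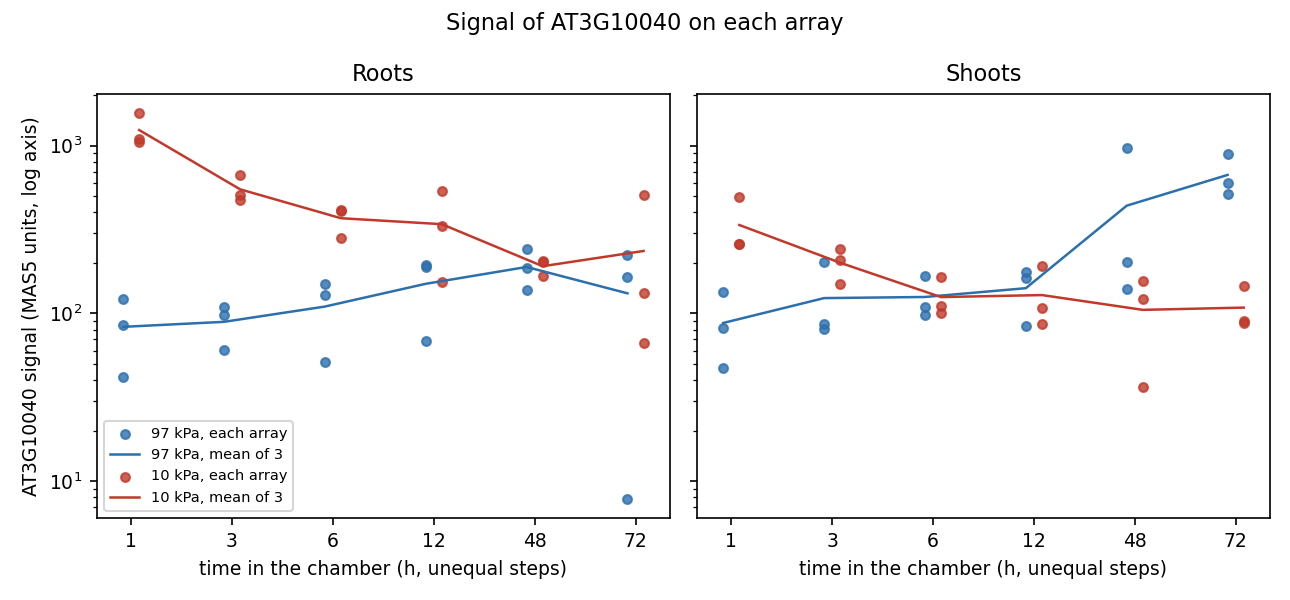
Signal of AT3G10040 on each of the 72 arrays (log axis, MAS5 units) against time in the chamber, in roots (left) and shoots (right); points are arrays, lines join the means of 3 arrays, red is 10 kPa and blue 97 kPa. In roots the 10 kPa points start at 1053 to 1571 at 1 h and come down to the control points by 48 h, and in shoots the 97 kPa points reach 516 to 890.2 at 72 h while those at 10 kPa stay between 88.1 and 147.

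In roots the transcript rose within 1 h of the move. At 1 h the 3 root arrays at 97 kPa read 84.9, 41.9 and 123, and the 3 at 10 kPa read 1095, 1571 and 1053. Every treated array thus stood far above every control array, with a smallest ratio between any 2 of them of 8.58. All 3 arrays at 10 kPa lay above all 3 at 97 kPa for 11.9% of probe sets at this time. The mean signal was 1239.8 ± 288 at 10 kPa while the control mean was 83.2 ± 40.4 (SD, n = 3 for each), a ratio of 14.9. The log2 difference was 3.84 (SE 0.63, limma adjusted p = 7.88e-05), and at 1 h 3.56% of probe sets were called in either direction. In tissue samples such as these, more RNA per cell and a larger share of cells that express the gene cannot be told apart.

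By 3 h the root signal at 10 kPa had come down while that of the controls had not moved much. The 97 kPa roots read 97.7, 109 and 60.9 and the 10 kPa roots 505, 668 and 475, again without overlap, as held for 12.1% of probe sets. The difference was 2.53 (SE 0.63, limma adjusted p = 0.0088), with 6.00% of probe sets called. The call rests in part on 1 control array: without 97 kPa replicate 3 the difference was 2.30 (limma adjusted p = 0.0556). At this time 5 of the 7 root markers fell, with a median of -1.36, among them AT3G49960 (-2.31) and EXPA7 (-2.03), while the GAPDH ratio of 3′ to 5′ signal spanned 62.9 to 89.4 at 10 kPa and 138 to 179 at 97 kPa. With the mean log2 ratio of 3′ to 5′ signal of the actin, GAPDH and ubiquitin controls as a covariate, the difference was 2.82 (0.0234). The part of the markers in this difference was not tested.

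At 6 h the 97 kPa roots read 128, 149.8 and 51.5 and the 10 kPa roots 416, 411 and 282. The groups still did not overlap, which held for 13.2% of probe sets, but the difference of 1.77 (SE 0.63) did not pass the threshold (limma adjusted p = 0.0726), with 9.19% of probe sets called. Only its estimated spread changed where the same difference passed, with only the 6 arrays of that time (limma adjusted p = 0.00521) or without the 48 and 72 h arrays (0.00357), while a difference of 1.43 passed with a larger pseudocount of 50.6 (0.0309).

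From 12 h on, the root groups overlapped. At 12 h the 97 kPa roots read 194, 68.1 and 189 (mean 150.1 ± 71.1) and the 10 kPa roots 537, 154 and 330 (mean 340.5 ± 192, SD, n = 3), a difference of 1.10 (SE 0.63, limma adjusted p = 0.296, 12.0% of probe sets called). In the 10 kPa group 1 array lay within the control range and the other two above it. At 48 h the 97 kPa roots read 242, 139 and 187 and the 10 kPa roots 201, 167 and 205, a difference of 0.04 (SE 0.63, 95% interval -1.23 to 1.32, limma adjusted p = 0.977, 11.5% called). The treated arrays all lay inside the control range, and the interval does not exclude a change of more than 2-fold either way. The 4 shoot markers summed to between 5627 and 11209 in the late root arrays at 10 kPa and to between 1671 and 8179 in those at 97 kPa, and 2 of the 4 were called higher at 48 h. The GAPDH 3′ to 5′ ratio at 48 h was 92.2 to 187 in roots at 10 kPa and 191 to 354 at 97 kPa. With the mean log2 ratio of the actin, GAPDH and ubiquitin controls as a covariate the difference was 0.21 (0.889). The part of the markers was not tested.

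At 72 h the root arrays scattered. The 97 kPa roots read 7.87, 222 and 165 and the 10 kPa roots 508, 66.3 and 133, a difference of 1.01 (SE 0.63, limma adjusted p = 0.371, 8.15% of probe sets called). The value 7.87 was the lowest of all 72 arrays and lay below the pseudocount. Without that array the difference was -0.18 (limma adjusted p = 0.892). Without the 4 arrays numbered apart it was 2.33 (0.0356), and in the 1 root pair of that run the 97 kPa array read 222 and the 10 kPa array 66.3. The direction at 72 h in roots therefore depended on which array was kept.

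Shoots showed an early rise and a late difference of the opposite sign. At 1 h the 97 kPa shoots read 47.3, 81.8 and 134 and the 10 kPa shoots 259, 259.9 and 491, with every treated array above every control array, as for 13.4% of probe sets. The mean rose from 87.7 ± 43.6 to 337 ± 134 (SD, n = 3), a ratio of 3.84, and the difference was 1.88 (SE 0.50, limma adjusted p = 0.0222, 4.36% of probe sets called). The call at 1 h ended with quantile normalization (1.70, limma adjusted p = 0.0597). It also ended when the control array of replicate 1 was left out (1.54, 0.115), that of replicate 2 (1.88, 0.0681) or the treated array of replicate 3 (1.58, 0.124). At 1 h in shoots 3 of the 4 shoot markers fell, LHCB4.2 (-1.21), PSBY (-0.49) and PSAE-1 (-0.47), and their part in the rise was not tested.

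At 3, 6 and 12 h the shoot groups overlapped. At 3 h the 97 kPa shoots read 81.3, 87.0 and 202 and the 10 kPa shoots 244, 149.8 and 208, a difference of 0.75 (SE 0.50, limma adjusted p = 0.474, 5.40% called). At 6 h the values were 98.4, 109.7 and 168 against 101, 164 and 110.2, a difference of 0.00 (SE 0.50, 95% interval -1.005 to 1.011, limma adjusted p = 0.999, 11.7% called). At 12 h they were 164, 83.7 and 177 against 192, 86.4 and 108, a difference of -0.14 (SE 0.50, 95% interval -1.15 to 0.87, limma adjusted p = 0.937, 7.41% called). In the text on these 3 times the 97 kPa values come first, and at 6 and 12 h neither group lay to 1 side of the other.

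At 48 and 72 h the difference in shoots was negative. At 48 h the 97 kPa shoots read 203, 139.8 and 974 and the 10 kPa shoots 156, 122 and 36.6, a difference of -1.66 (SE 0.50, limma adjusted p = 0.0134, 23.7% of probe sets called). A single control array, replicate 3 at 974, stood apart at that time, and the highest treated array lay above the lowest control array. Without 97 kPa replicate 3 the difference was -0.84 (limma adjusted p = 0.211), and without 10 kPa replicate 3 it was -1.09 (0.122).

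At 72 h the separation was complete. The 97 kPa shoots read 516, 890.2 and 603 and the 10 kPa shoots 147, 88.1 and 90.1, so that every treated array lay below every control array, as for 17.3% of probe sets in that direction. The mean was 108 ± 33.3 at 10 kPa while the controls had 669.5 ± 196 (SD, n = 3 for each), and the difference was -2.53 (SE 0.50, limma adjusted p = 0.000338, 19.8% of probe sets called). The pair numbered apart went the same way, 603 at 97 kPa and 88.1 at 10 kPa, and without the 4 arrays of that run the difference was -2.47 (0.00661). The GAPDH 3′ to 5′ ratio moved with pressure at both late times in shoots: it was 47.2 to 147 at 48 h and 36.1 to 52.0 at 72 h in the 10 kPa arrays, against 10.1 to 25.4 over both times in the 97 kPa arrays. The mean log2 ratio of the actin, GAPDH and ubiquitin controls was also used as a covariate. The 72 h difference was then -2.56 (limma adjusted p = 0.0172) and the 48 h difference -1.70 (0.252). The summed root markers in shoots also differed, 158 to 431 in the late 10 kPa arrays against 564 to 1017 in the late 97 kPa arrays. Of the 7 root markers only AT2G37130 was bright enough in shoots to be tested, and it fell there at 48 h (-1.83) and 72 h (-2.34). Its mean signal in control shoots was 483 at 48 h and 671 at 72 h, most of the summed signal in those groups. The part of these RNA quality and marker values in the result was not tested.

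**Figure D2:**
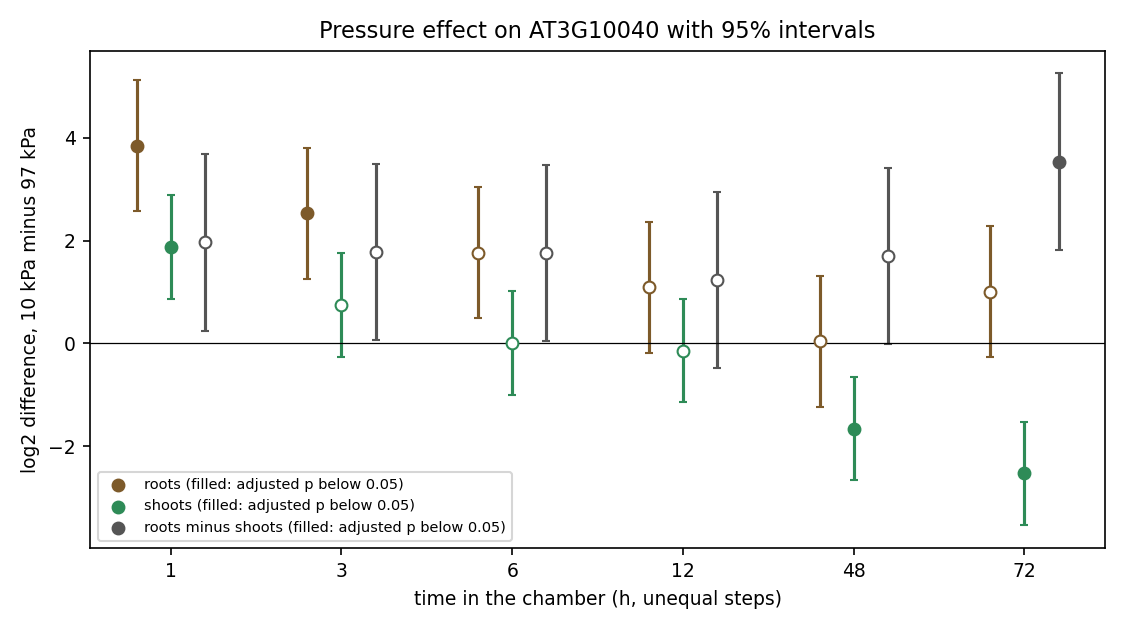
Log2 difference of AT3G10040 between 10 kPa and 97 kPa at each time in roots (brown), shoots (green) and as the difference of the 2 organs (grey), with 95% intervals of the limma fits; filled points had an adjusted p below 0.05. The root differences go from 3.84 at 1 h to 0.04 at 48 h, the shoot differences from 1.88 at 1 h to -2.53 at 72 h, and the organs differ with a filled point only at 72 h.

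The root difference was the larger in value at every time, but the contrast between organs passed the test only at 72 h. These contrasts use the same arrays as the 12 pressure differences above. The root minus shoot difference in pressure effect was 1.97 at 1 h (SE 0.86, limma adjusted p = 0.292), 1.78 at 3 h (0.374), 1.76 at 6 h (0.249), 1.24 at 12 h (0.506) and 1.70 at 48 h (0.223). All 5 were positive, and none was called at times when 1.69%, 1.84%, 6.31%, 5.19% and 9.30% of probe sets were. At 72 h it was 3.54 (SE 0.86, limma adjusted p = 0.00571, 6.64% of probe sets called), which ended as a call without the lowest array, roots at 97 kPa replicate 1 (2.35, adjusted p = 0.0552). It joined an uncalled positive root difference to a negative shoot difference.

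The level itself differed between organs in opposite directions at the 2 pressures. At 10 kPa the root arrays spanned 66.3 to 1571 with a median of 413, and the shoot arrays 36.6 to 491 with a median of 148 (18 arrays each). The root level was higher by 1.29 over the 6 times (SE 0.25, limma adjusted p = 5.26e-06). At 97 kPa the root arrays spanned 7.87 to 242 with a median of 126, the shoot arrays 47.3 to 974 with a median of 152, and the root level was lower, with a difference of -0.71 (SE 0.25, adjusted p = 0.00763). Most of the array differs between organs, with 78.6% of probe sets called at 10 kPa and 79.9% at 97 kPa, so the calls alone say little about this gene. The median of all probe sets was shifted by 0.30 at 10 kPa and by 0.34 at 97 kPa, and with arrays scaled to the same median the differences were 0.99 and -1.06. At 97 kPa the lower root level was not called without the late arrays: without the 48 and 72 h arrays the difference was -0.17 (adjusted p = 0.477), and without replicate 3 of every group it was -0.46 (0.169). The 3′ to 5′ ratio, far higher in roots than in shoots, ended both calls as a covariate (0.99 at 10 kPa, adjusted p = 0.190, and -1.20 at 97 kPa, 0.359).

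Roots and shoots of 1 tube could also be set side by side. Both organs were measured for 29 tubes. At 10 kPa the root signal was the higher in 16 of 16 tubes, by a ratio of 1.29 to 6.05 with a median of 2.53. At 97 kPa it was the higher in 7 of 13 tubes, with a median ratio of 1.07 and a range of 0.00884 to 1.80, the lowest of these being the tube of the root array at 7.87. The 97 kPa tubes held none of 48 h and 1 of 72 h, the times at which control shoots were high. A median of signal ratios over these tubes and the mean log2 difference of the fit over all arrays are unlike measures, so they were not compared. No test was made on these ratios, since the organ fit above uses the same arrays.

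**Figure D3:**
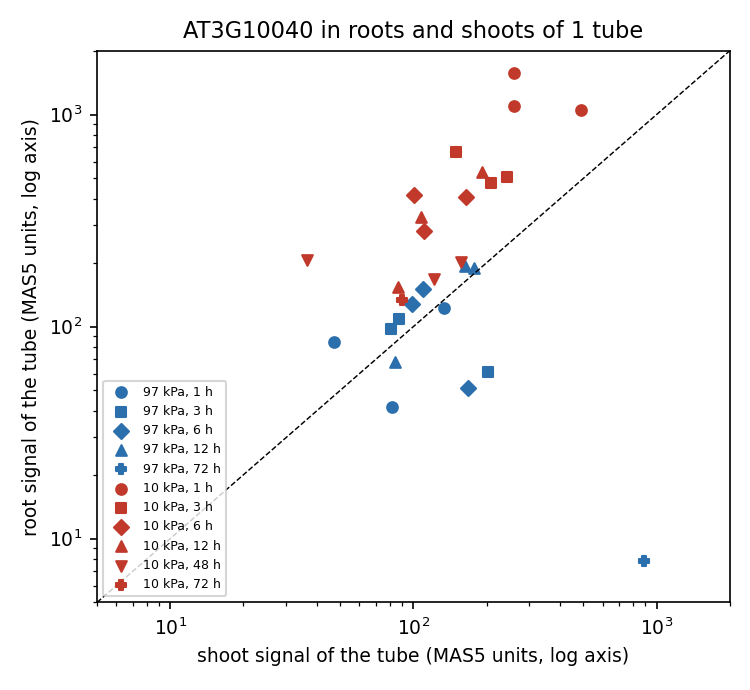
Root signal against shoot signal of AT3G10040 in the 29 tubes with an array of both organs (log axes, MAS5 units); colour gives the pressure, the marker the time, and the dashed line equal signals. All 16 tubes at 10 kPa lie above the line, the 13 tubes at 97 kPa lie on both sides of it, and 1 tube at 97 kPa and 72 h stands far to the lower right with a root signal of 7.87.

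The pressure effect went down with time in both organs. Late (48 and 72 h) minus early (1 and 3 h) values were compared in each. In roots the pressure effect fell by 2.66 (SE 0.63, limma adjusted p = 0.00802, 5.18% of probe sets called). The level at 10 kPa went from 475 to 1571 in the 6 early arrays to 66.3 to 508 in the 6 late arrays, a fall of 2.13 (log2 difference -2.13, SE 0.44, adjusted p = 0.000352, 29.1% called). The level at 97 kPa went from 41.9 to 123 early to 7.87 to 242 late, a difference of 0.53 (SE 0.44, adjusted p = 0.422, 24.1% called). Against 6 and 12 h in place of 1 and 3 h the level at 10 kPa differed by -0.86 and was not called (0.187). The fall in pressure effect was no longer called without replicate 2 of every group (-1.78, 0.249), without replicate 3 (-2.50, 0.105) or with 6 and 12 h in place of 1 and 3 h (-0.91, 0.491), and the level at 97 kPa was called higher without its array at 7.87 (1.12, 0.0213).

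In shoots both pressures moved, in opposite directions. The pressure effect fell by 3.41 (SE 0.50, limma adjusted p = 1.05e-05, 18.2% of probe sets called). The level at 97 kPa rose from 47.3 to 202 in the 6 early arrays to 139.8 to 974 in the 6 late arrays, a difference of 2.12 (SE 0.35, adjusted p = 3.51e-05, 22.5% called). The level at 10 kPa went from 149.8 to 491 early to 36.6 to 156 late, a difference of -1.29 (SE 0.35, adjusted p = 0.00483, 30.5% called). The late arrays at 10 kPa were close to those of 6 and 12 h, which read 86.4 to 192: against these the difference was -0.30 (0.604). The rise at 97 kPa kept its call against 6 and 12 h, whose control arrays were numbered in the same run as most of the late ones (1.73, 0.00155), and without the array at 974 (1.71, 0.000167). So did the fall in the pressure effect (-2.03 with 6 and 12 h, 0.00708). Without replicate 3 of every group the difference at 10 kPa was -0.79 (0.0568).

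HRA1 belongs to the low-oxygen response, and 25 other genes of a low-oxygen list of 48 could be tested beside it. The list was drawn up with results of these data in view, so its direction is not independent evidence. In roots at 1 h 23 of 25 rose and none fell, when 2.13% of probe sets rose, and the median difference was 3.53, against -0.02 over all probe sets. The largest was AT5G10040, at 8.19 (SE 0.39, limma adjusted p = 9.78e-18), followed by AT2G17850 (6.01), AT4G33560 (5.86) and AT3G29970 (5.45). At 1 h HRA1, at 3.84, lay above the median, with 10 list genes above it.

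In roots more list genes lay above HRA1 at each later time than at 1 h. At 3 h 23 rose (2.57% of all probe sets rose), at 6 h 21 (4.59%), at 12 h 22 (5.66%), at 48 h 19 (5.33%) and at 72 h 11 (3.52%), and none fell at any of these times. The median difference was 2.87 at 3 h, 2.13 at 6 h, 2.39 at 12 h, 1.41 at 48 h and 0.83 at 72 h. The number of list genes with a larger difference than HRA1 was 14 at 3 h, 16 at 6 h, 21 at 12 h, 23 at 48 h and 12 at 72 h. AT3G29970 had its largest root difference at 12 h, 8.35 (SE 0.40, adjusted p = 7.61e-18), when HRA1 was not called. AT3G03270, the hypoxia-responsive universal stress protein HRU1, stood at 4.11 at 48 h (SE 0.24, adjusted p = 5.26e-15), when the difference of HRA1 was 0.04. The late minus early contrast put this in 1 value: 16 of 25 list genes fell in pressure effect and none rose (2.99% of probe sets fell), with a median of -1.34. Every one of the 25 had a smaller loss than the -2.66 of HRA1. Among all 16667 probe sets tested in roots HRA1 ranked 30 by absolute size of this contrast, so few of any kind had a larger loss. No test of HRA1 against the list was made.

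The levels behind these differences diverged at 10 kPa. In the late root arrays at 10 kPa, 2 of 25 list genes were higher than early and 14 lower, when 13.7% and 15.4% of probe sets were, and the median was -0.71. The 2 that rose were AT3G29970 (2.19, adjusted p = 2.52e-07) and AT3G03270 (1.30, 3.44e-07), against the fall of 2.13 in HRA1. The pyruvate decarboxylase gene PDC2, of ethanol fermentation, came nearest to it at -1.97 (4.78e-12). At 97 kPa 14 list genes were higher late than early and none lower (11.5% and 12.6% of probe sets), with a median of 0.70.

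**Figure D4:**
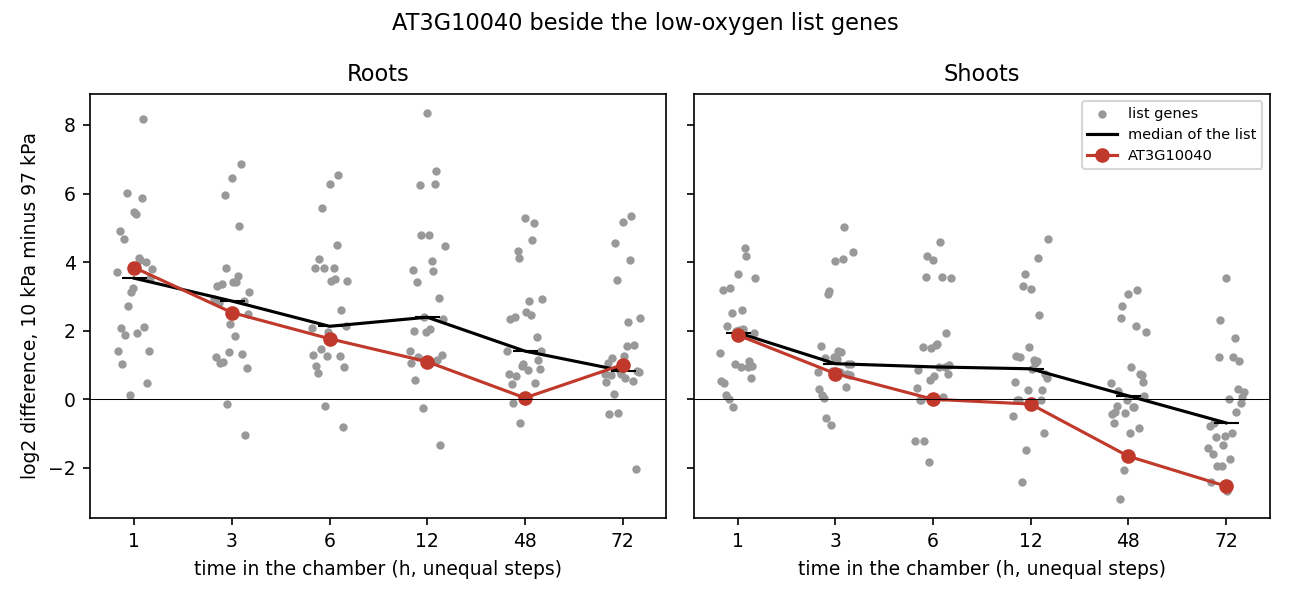
Log2 difference between 10 kPa and 97 kPa at each time in roots (left) and shoots (right) for the 25 tested low-oxygen list genes (grey points), their median (black) and AT3G10040 (red). In roots AT3G10040 starts at 3.84, near the list median of 3.53, and falls to 0.04 at 48 h, where the median is 1.41; in shoots it goes from 1.88 to -2.53, while the median goes from 1.94 to -0.69.

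In shoots the list began like HRA1 and then split. At 1 h 16 of 25 rose (2.27% of probe sets rose) with a median of 1.94, close to the 1.88 of HRA1. At 3 h 13 rose (2.54%) and none fell, with a median of 1.04. At 6 h 12 rose (5.78%) and 2 fell (5.92%), and at 12 h 8 rose (3.82%) and 2 fell (3.59%). At 48 h 8 rose (10.4%) and 3 fell (13.4%), with a median of 0.10, and at 72 h 5 rose (9.33%) and 10 fell (10.5%), with a median of -0.69. The share of list genes that fell was thus near the background at 6, 12 and 48 h. With the 3′ to 5′ ratio as a covariate 2 rather than 5 list genes rose at 72 h and 2 rather than 10 fell. The share of all probe sets that fell under that setting is not given here, so these counts are not read against a background.

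At 72 h in shoots HRA1 had a lower difference than 24 of the 25. The exception was AT4G10270, at -2.67 (SE 0.33, adjusted p = 6.49e-07), and AT1G33055 (-2.41, 0.000554) came next. Among all 15794 probe sets tested HRA1 ranked 85 by absolute size, so few of any kind had a lower difference. AT3G29970 (3.55, adjusted p = 3.60e-08) and AT3G03270 (2.30, 3.60e-08) were still higher at 10 kPa. In the 97 kPa shoots themselves 23 of 25 list genes were higher late than early and none lower, when 11.4% of probe sets were higher and 11.1% lower, with a median of 1.48 beside the 2.12 of HRA1. AT5G66985 (3.22, 8.92e-08), AT1G19530 (2.82, 0.000113), AT4G24110 (2.69, 1.12e-06) and the calmodulin-like gene CML38 (2.64, 2.66e-07) led them. At 10 kPa 2 were higher late and 4 lower (13.2% and 17.3% of probe sets), with a median of -0.05. Over the late minus early pressure effect in shoots 17 of 25 fell and none rose (10.4% of probe sets fell), with a median of -1.50 beside -3.41 for HRA1.

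Genes of fermentation and glycolysis behaved in part like HRA1. Of 21 such genes 7 were tested. PDC2 had root differences of 3.53, 2.50, 2.13, 2.35, 1.41 and 0.81 from 1 to 72 h, each called. AT4G17260, the lactate dehydrogenase gene, rose at each of the 6 times in roots, by 2.27 at 1 h, 2.35 at 3 h and 1.09 at 72 h. GAPC2, a cytosolic glyceraldehyde-3-phosphate dehydrogenase of glycolysis, rose at 3 h (1.49), 6 h (1.35), 12 h (1.54) and 48 h (1.22) and stood at 0.51 at 1 h without a call. The number of the 7 that rose in roots was 2, 3, 4, 6, 5 and 2 from 1 to 72 h and in shoots 2, 3, 4, 5, 1 and 1, and 1 fell, GAPC2 in shoots at 72 h (-0.41, adjusted p = 0.0188). Of all probe sets 2.13%, 2.57%, 4.59%, 5.66%, 5.33% and 3.52% rose at these times in roots and 2.27%, 2.54%, 5.78%, 3.82%, 10.4% and 9.33% in shoots, so the 1 of 7 in late shoots was near the background. In roots HRA1 and PDC2 had their largest difference at 1 h and AT4G17260 at 3 h, while the other 5 genes had theirs at 12 or 48 h.

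Of 20 genes of oxygen sensing and the N-degron pathway only 2 had a probe set of their own in the annotation, and neither is an oxygen sensor. AT2G41760 encodes the amidase of N-terminal glutamine and AT2G44420 that of N-terminal asparagine. AT2G41760 was called once in 12 comparisons, lower in shoots at 72 h (-0.47, SE 0.14, adjusted p = 0.017). AT2G44420 was called once, higher in roots at 72 h (1.28, SE 0.30, adjusted p = 0.00474). Neither was called at 1 or 3 h in either organ, while HRA1 rose in roots at both times and in shoots at 1 h. RAP2.12 and the other ERF factors that act on HRA1 were not analysed here.

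Other trihelix genes were called at a rate within the range of all probe sets. Of 27 other listed trihelix genes, 11 were tested in roots and 13 in shoots, 14 in all. Over their 144 comparisons 6 were called higher and 8 lower, where between 3.56% and 23.7% of all probe sets were called, so this count says nothing particular to the family. At 1 and 3 h in roots they had medians of 0.00 and 0.10 with none called. In shoots AT3G54390 rose at 1 h (0.93, beside 1.88 for HRA1) and at 3 h (0.90), when HRA1, at 0.75, was not called. The largest trihelix difference in shoots at 1 h, 1.79, was that of another gene and was not called. The largest change was that of PETAL LOSS (PTL), a regulator of perianth growth, in roots at 48 h: its signal was 425 ± 240 at 10 kPa and 34.5 ± 21.0 in the controls (SD, n = 3 for each), a difference of 3.29 (SE 0.42, limma adjusted p = 5.63e-07). At that time the difference of HRA1 was 0.04, with no call. AT1G21200 fell in roots at 72 h (-2.63, SE 0.51, adjusted p = 0.000661), AT3G11100 fell in roots at 48 h (-2.10, SE 0.69, 0.0423) and AT3G10030 rose there (2.01, SE 0.60, 0.0247). In shoots at 48 and 72 h, where HRA1 was lower at 10 kPa, 12 and 13 of the 13 had a higher difference than HRA1. HRA1 ranked 436 and 85 by absolute size among the 15794 probe sets tested at these times. Most probe sets thus also had a higher difference, and these counts say nothing particular to the family.

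AT3G10030 is also the next protein-coding gene to AT3G10040 on the chromosome in the reference table. A list of 9 genes around the locus was drawn up, and 3 of them had a probe set of their own. AT3G10080, which lies outside that list, was not analysed. AT3G10030 stood at 0.56 in roots at 1 h and at -0.22 in shoots at 1 h, neither called. AT3G10020, the second gene on the same side and a member of the low-oxygen list, was called in none of the 6 root pressure comparisons and fell in shoots at 6 h (-1.83), 12 h (-1.47), 48 h (-2.05) and 72 h (-1.93, SE 0.31, adjusted p = 3.53e-05). Its shoot signal at 72 h was 798 ± 144 at 10 kPa and 3075 ± 594 in the controls (SD, n = 3 for each). AT3G10060, the second gene on the other side, was called in none of the 12 pressure comparisons. The early rise in roots was therefore called at AT3G10040 and at none of these 3 neighbours, with no test of the difference. In roots at 1 h AT3G10060 stood at 0.87 (SE 0.78), and the SE of AT3G10030 was 0.60, so these values do not exclude a rise.

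The genes most like HRA1 were found by their 12 pressure differences, 6 times in each organ, among 9958 other genes with a probe set of their own. Likeness is a description over these 12 values, each from its own pair of groups, and carries no p. By the root mean square difference the 6 closest were AT3G23170 (0.866), AT1G19530 (0.910), the RING finger gene AT5G42200 (0.983), AT1G03610 (0.987), the TIR-domain gene AT1G72940 (0.991) and the kelch-repeat gene AT3G27220 (1.02). A gene with no change at all would lie at 1.82, and the median gene lay at 1.89. All of the 6 but AT1G03610 are among the 25 tested genes of the low-oxygen list. That list was drawn up with results of these data in view, so the overlap is not independent evidence. The closest, AT3G23170, had a root difference of 3.12 at 1 h and a shoot difference of -1.32 at 72 h, and its root difference, 1.38 at 3 h, stood at 2.39 at 12 h.

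By the shape of the profile alone the nearest gene was AT1G03610, with a Pearson r of 0.968 over the 12 values. It was followed by AT2G44500 (0.951), WRKY22 (0.950), a transcription factor of defence and submergence responses, AT5G06560 (0.945), AT5G42200 (0.941) and AT2G39870 (0.936). These genes moved less than HRA1: AT1G03610 went from 1.91 in roots at 1 h to -1.37 in shoots at 72 h, and WRKY22 from 1.68 to -1.32. An r above 0.9 was reached by 21 genes.

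**Figure D5:**
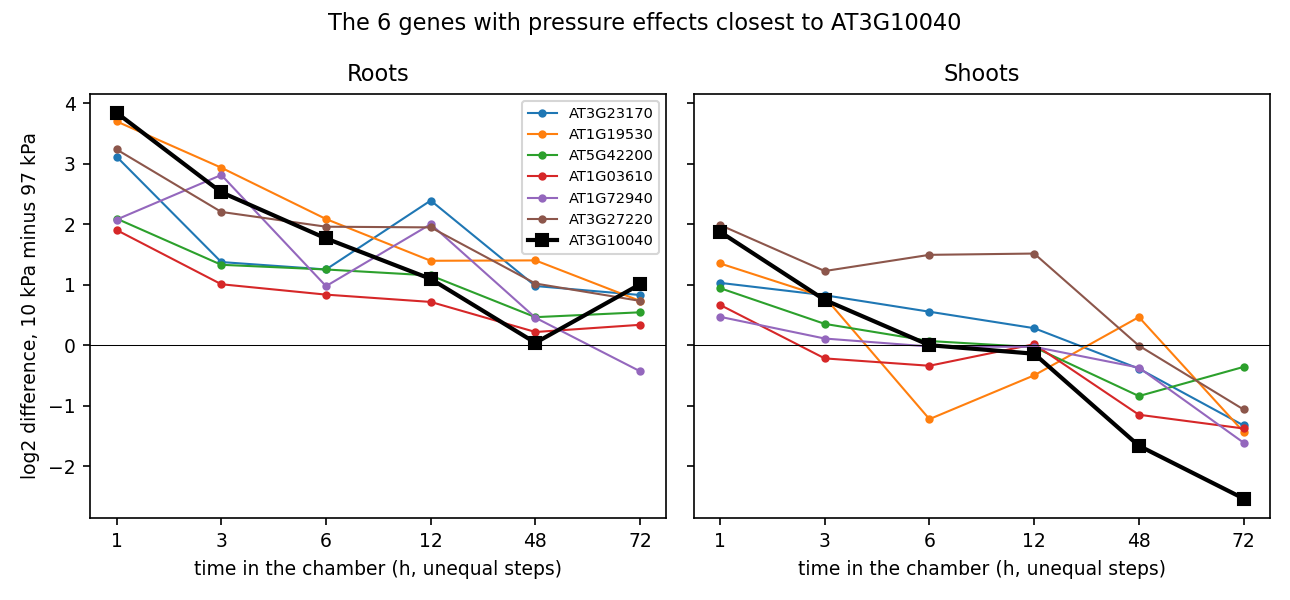
Log2 difference between 10 kPa and 97 kPa at each time in roots (left) and shoots (right) for AT3G10040 (black squares) and the 6 genes with the smallest root mean square difference from it (coloured). AT3G10040 has the highest value of the 7 in roots at 1 h (3.84) and the lowest in shoots at 48 h (-1.66) and 72 h (-2.53).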

How the data were processed

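Total RNA of roots and shoots was hybridised to 72 ATH1 arrays. The authors deposited linear signal intensity. The submitters' processing notes name MAS5 and Affymetrix Expression Console, and tool versions are not stated there. The table holds 22810 probe sets, 64 of them controls. Log2(signal + 8.88), the 10th percentile being the pseudocount, was fitted by limma (version 3.58.1, R 4.3.3; lmFit on group means and eBayes with trend) where a probe set reached the 40th percentile of its array in at least 3 arrays: 16667 in roots, 15794 in shoots, 17901 for both. P-values were Benjamini-Hochberg adjusted over all of these. With 3 arrays a group, array number limits the precision. The annotation names 1 gene for 13513 probe sets, of which 13436 matched the reference table (assembly TAIR10.1).

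The gene and the lists were chosen with earlier results of these data known. The text names every tested oxygen sensing gene and neighbour, up to 4 low-oxygen and fermentation genes with the largest change in a comparison, the 4 trihelix genes with the largest change, and the 6 most alike genes by each measure; other named genes were picked after their values were seen. Replicate numbers did not pair samples: deviations of same-numbered arrays correlated at -0.05 to 0.09 over 36 pairs. Other scaling, pseudocounts, filters, variance priors, blocks, covariates and left-out arrays were tried, and the procedure was tested on simulated data.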

Additional observations from a re-analysis of the deposited data

Results flagged for a closer look

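The pressure effect on AT3G10040 differed between roots and shoots at 72 h by 3.54 (root minus shoot, log2 scale, SE 0.86, limma adjusted p = 0.00571), the 1 of 6 times at which that difference was called. The root arrays behind it scattered from 7.87 to 508, and the shoot arrays did not overlap between pressures. The pressure effect also differed between late and early times within each organ. In roots the late minus early difference was -2.66 (SE 0.63, adjusted p = 0.00802), and in shoots it was -3.41 (SE 0.50, adjusted p = 1.05e-05). All 3 were tested as contrasts of limma fits over all arrays of the organs concerned.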

How the results depend on the processing

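Each of the 26 comparisons of AT3G10040 was recomputed under 15 to 24 other settings, 473 in all. Of these 443 kept the same outcome, called or not called. A call ended in 22 and was gained in 8, and none turned a called direction. In 12 comparisons every setting kept the same outcome. The called ones among them were the root rise at 1 h (3.29 to 4.15) and the shoot difference at 72 h (-2.75 to -2.17). The late fall of the pressure effect in shoots (-3.69 to -2.03) and the late rise in 97 kPa shoots (1.71 to 2.22) were the others. The rest of the 12 were called in no setting. Uncalled differences near 0 changed sign as arrays were left out: roots at 48 h (-0.15 to 0.23) and shoots at 6 h (-0.20 to 0.22) and 12 h (-0.45 to 0.09). The cause of the changes below was not tested.

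With single arrays or replicates left out, values ranged from 2.30 to 2.68 for roots at 3 h, 1.54 to 2.21 for shoots at 1 h, -2.20 to -0.84 for shoots at 48 h, and 2.35 to 4.24 for root minus shoot at 72 h. The late minus early values ranged from -3.71 to -1.78 for the root effect, 0.16 to 1.12 for the root level at 97 kPa and -1.58 to -0.79 for the shoot level at 10 kPa, and root minus shoot at 97 kPa from -0.87 to -0.46. The root level at 97 kPa was called without replicate 1 of every group (1.10) and without its array at 7.87 (1.12), the latter chosen after seeing the data.

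Root differences gained a call at 6 h with a larger pseudocount (1.43), without the 48 and 72 h arrays (1.77) and with only the 6 arrays (1.77), and at 72 h without the 4 arrays numbered apart (2.33). Quantile normalization ended the shoot call at 1 h (1.70). With only the arrays of the comparison, the shoot difference at 48 h (-1.66) and root minus shoot at 72 h (3.54) were no longer called, while root minus shoot at 3 h (1.78) and 6 h (1.76) were. The 3′ to 5′ covariate ended the calls for shoots at 48 h (-1.70), the shoot level at 10 kPa (-1.32) and root minus shoot at 10 kPa (0.99) and 97 kPa (-1.20), the last also ended without the 48 and 72 h arrays (-0.17). With 6 and 12 h in place of 1 and 3 h, chosen after seeing the data, the root effect (-0.91), the root level at 10 kPa (-0.86) and the shoot level at 10 kPa (-0.30) were not called.

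A replicate block changed no call of AT3G10040 (adjusted p = 0.000124 for roots at 1 h and 0.000233 for shoots at 72 h). The list counts moved by over 1.5 times in 14 of 236 recounts. With the 3′ to 5′ covariate, low-oxygen genes higher in shoots were 4 rather than 8 at 48 h and 2 rather than 5 at 72 h, where 2 rather than 10 were lower. The share of all probe sets called also moved, to between 1.99% and 8.73% for roots at 1 h against 3.56%. It was 3.09% to 31.4% for shoots at 48 h against 23.7%, and 6.32% to 27.2% for shoots at 72 h against 19.8%.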
